A study of Mus musculus with 14 samples.

Results

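The marrow macrophage genes are 10 genes whose products mark resident macrophages of the bone marrow or serve their handling of dying cells and iron: Adgre1, C1qa, C1qb, C1qc, Cd5l, Vcam1, Spic, Hmox1, Slc40a1 and Cd68. They were taken by name from a list, and all 10 are among the 24833 genes of the count table. All 10 also passed the filter on low counts, as did 15466 genes in all. RNA was counted per gene in 14 libraries of stem cell-enriched bone marrow cells of C57BL/6 mice, sorted as SLAM cells: LSK cells (lineage markers absent, Sca-1 and Kit present) that lack Flk2 and CD48 and carry CD150. The mice carried no stated mutation and were injected intraperitoneally each day with the inflammatory cytokine IL-1β (0.5 µg for each mouse) or with saline (PBS) as control. Dosing lasted 1 day (3 PBS and 3 IL-1β libraries) or 20 days (4 and 4). Each library is a biological replicate made from cells pooled over several mice, so it carries no value for a single animal, and the age of the mice is not given in the sources used here.

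Marrow macrophages clear dying cells and the nuclei that erythroblasts expel, and they recycle the iron of red cells. C1qa, C1qb and C1qc encode the 3 chains of complement C1q, which binds dying cells and is made mainly by macrophages and dendritic cells. Cd5l encodes a secreted scavenger receptor-like protein of macrophages. SpiC, the ETS-family transcription factor encoded by Spic, is needed for red pulp and marrow macrophages and can be induced by heme. Heme oxygenase-1 (Hmox1) breaks down heme, and ferroportin (Slc40a1) exports the freed iron. The question asked of these genes was whether they rise and fall together from library to library, as the RNA of a single other cell type would.

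The libraries held 21654896 to 29441947 counts, so that 3 counts in 1 library correspond to 0.102 to 0.139 CPM (a gene's count relative to the total count of its library). Stem cell genes were present throughout, with Kit at 586 to 1663 CPM, Slamf1 (CD150) at 39.4 to 116 and Procr at 55.8 to 112. Genes of Flk2 and CD48, which the sorted cells lack, were also counted in every library: Flt3 (Flk2) at 40.7 to 139 CPM and Cd48 at 2.78 to 10.2. Library titles fall into 4 naming sets, "10k" and "E060216" at 1 day and "E061316" and an untagged set at 20 days, each with equal numbers of PBS and IL-1β libraries. The labels do not explain the tags. Replicate 3 of each 1-day group is the 10k library, and replicates 3 and 4 of each 20-day group are untagged. In IL-1β 20-day replicate 3 the 13 listed neutrophil genes summed to 2702 CPM, against 97.7 to 194 CPM in the other libraries. The 8 monocyte genes summed to 225 CPM in that library, and to 13.1 to 19.4 CPM in the PBS, 20.2 to 29.3 in the IL-1β 1-day and 31.2 to 31.8 in the other IL-1β 20-day libraries.

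Promoter sequences bear on genes that follow each other, so the 250 bases before the RefSeq start (GRCm38.p6) are shown for C1qb, C1qc and Cd5l, whose levels followed each other, and for Cd68, whose level did not follow them. Of the 10 members, 5 matched the promoter table: these 4 and Spic. Capitals mark GAGGAA on either strand (TTCCTC on the strand shown), a core that PU.1 and SpiC are known to bind.
C1qb (chr4:136886201-136886450, minus strand): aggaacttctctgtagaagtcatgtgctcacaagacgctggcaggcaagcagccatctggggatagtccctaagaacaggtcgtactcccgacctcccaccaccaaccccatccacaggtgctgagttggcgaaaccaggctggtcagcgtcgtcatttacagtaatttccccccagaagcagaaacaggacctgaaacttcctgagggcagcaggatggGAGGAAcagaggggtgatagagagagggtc
C1qc (chr4:136892915-136893164, minus strand): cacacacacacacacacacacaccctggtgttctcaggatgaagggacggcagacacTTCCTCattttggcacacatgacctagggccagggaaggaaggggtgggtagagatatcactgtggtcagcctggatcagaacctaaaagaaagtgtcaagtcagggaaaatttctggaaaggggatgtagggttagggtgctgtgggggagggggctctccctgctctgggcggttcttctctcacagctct
Cd5l (chr3:87357631-87357880, plus strand): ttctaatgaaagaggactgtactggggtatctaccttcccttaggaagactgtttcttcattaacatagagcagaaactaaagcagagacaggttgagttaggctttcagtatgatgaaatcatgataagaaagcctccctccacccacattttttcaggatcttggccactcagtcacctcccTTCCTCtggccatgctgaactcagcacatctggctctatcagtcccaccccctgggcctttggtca
Cd68 (chr11:69666171-69666420, minus strand): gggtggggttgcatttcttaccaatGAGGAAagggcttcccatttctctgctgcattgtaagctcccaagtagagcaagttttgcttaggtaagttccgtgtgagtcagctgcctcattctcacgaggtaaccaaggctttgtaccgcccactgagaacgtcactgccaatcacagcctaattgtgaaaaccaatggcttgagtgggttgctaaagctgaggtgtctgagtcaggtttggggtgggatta
Each of the 4 windows holds 1 match, both those of C1qb and Cd5l, which fell after 20 days, and that of Cd68, which rose, and the Spic window holds none. The Spic window (chr10:88683024-88683273) lies inside the gene span given below, which comes from another annotation, and the C1qc window overlaps its span. The lack of a match thus does not cover the bases before that Spic start. Of 32851 promoter windows of this length in the table, 23.3% hold at least 1 match. The match is a description of the letters and not evidence of binding.

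In the PBS libraries of both durations, Cd68 had the highest level per length of the 10 genes, with 10.3 ± 1.16 CPM per kilobase of annotated exon (SD, n = 7, range 8.81 to 11.97). Cd68 encodes a lysosomal membrane glycoprotein that is high in macrophages but not confined to them. Next were Hmox1 at 4.83 ± 1.48, C1qb at 4.37 ± 2.005, C1qa at 2.59 ± 1.70, Spic at 1.79 ± 0.249 and C1qc at 1.62 ± 0.868 CPM per kilobase. Cd5l (0.861 ± 0.527), Slc40a1 (0.808 ± 0.276), Vcam1 (0.539 ± 0.369) and Adgre1 (0.295 ± 0.289) were lowest. The ranges of neighbours in this order overlapped, except that every library's Cd68 level lay above the highest Hmox1 level (6.42). Spic and Cd68 had the smallest spread for their level, and Adgre1 the largest.

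**Figure D1:**
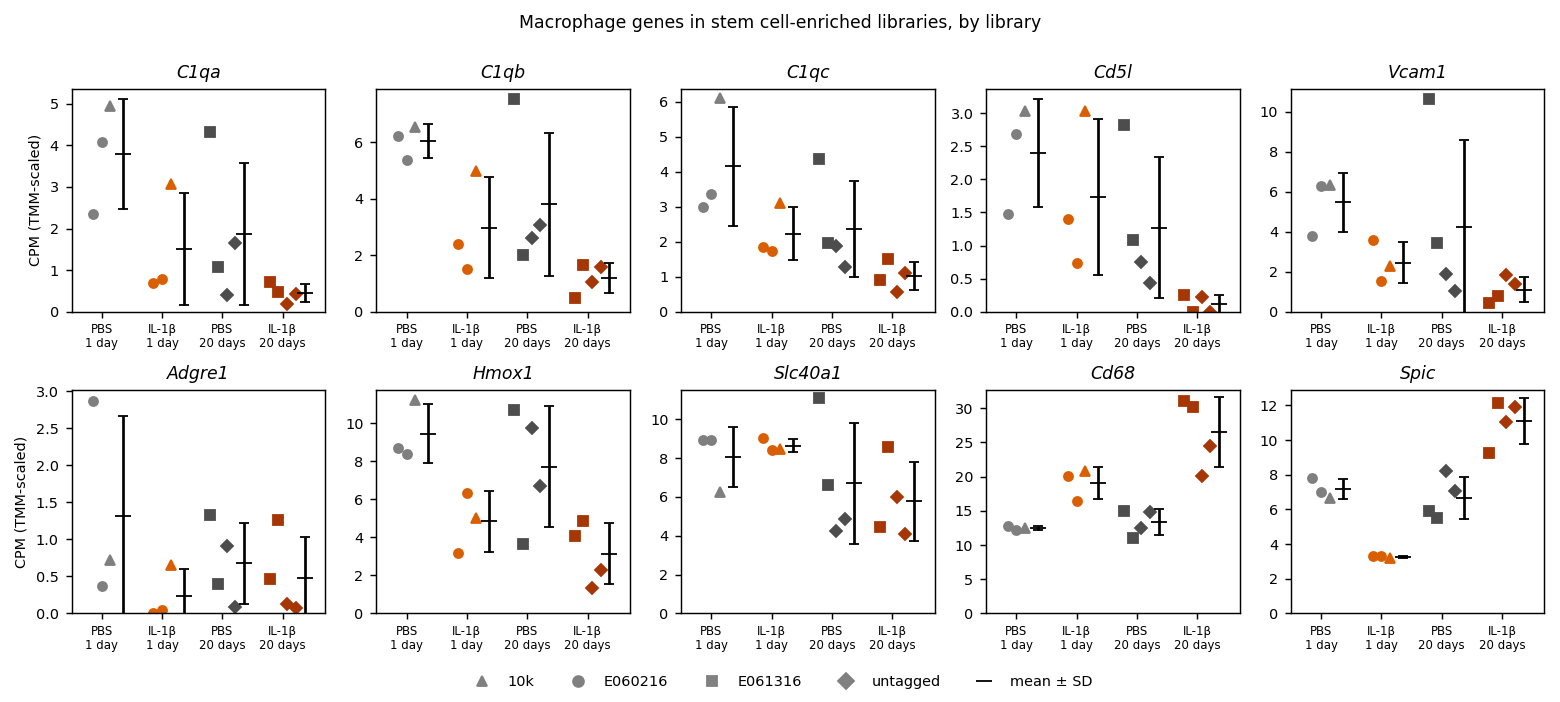
CPM of each gene (vertical axes, scaled by TMM factors) in the 14 libraries by group, with 1 point per library, marker shapes for the naming sets, and the mean ± SD beside each group (bars cut at 0). Spic and Cd68 form tight groups, while the C1q genes, Cd5l and Vcam1 vary several-fold within the PBS 20-day group.

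The C1q chains had lower mean levels with IL-1β at both durations, and at 20 days C1qa and C1qb passed the test. The 3 genes lie next to each other on chromosome 4 (GRCm38, minus strand): C1qb at 136880129 to 136886187, C1qc at 136889804 to 136893065 and C1qa at 136895917 to 136898803. After 1 day, C1qb was at 6.21, 5.36 and 6.54 CPM in the PBS libraries and at 2.41, 1.53 and 4.97 in the IL-1β libraries. The groups did not overlap, with the 10k library the highest of each group. The difference was -1.16 ± 0.51 on the log2 scale (± SE) and did not pass the test (edgeR adjusted p = 0.236). C1qa went from 2.35, 4.07 and 4.95 CPM to 0.683, 0.783 and 3.07, and C1qc from 2.98, 3.38 and 6.11 to 1.85, 1.73 and 3.10. For both genes the 10k IL-1β library overlapped the PBS range, and the edgeR adjusted p was 0.168 and 0.242. Within naming sets, the C1qa difference was -0.68 in 10k and -1.97 in E060216, and that of C1qb was -0.39 and -1.55.

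After 20 days, C1qb was at 7.55, 1.998, 2.60 and 3.06 CPM with PBS and at 0.502, 1.65, 1.04 and 1.57 with IL-1β. All 4 IL-1β libraries lay below all 4 PBS libraries, and PBS replicate 1 lay far above the rest. The fall was 1.63 ± 0.46 on the log2 scale, 3.09-fold (edgeR adjusted p = 0.0445). C1qa went from 4.32, 1.08, 0.406 and 1.66 CPM to 0.718, 0.467, 0.174 and 0.430, with 1 PBS library (replicate 3) inside the IL-1β range. It fell by 1.97 ± 0.56, 3.93-fold (edgeR adjusted p = 0.0473). C1qc went from 4.37, 1.96, 1.89 and 1.27 CPM to 0.897, 1.51, 0.564 and 1.10, a difference of -1.17 ± 0.35 with an edgeR adjusted p of 0.0607 (called by DESeq2, 0.0192). Both calls lay near the threshold: leaving out each library in turn ended the call in 10 of 14 fits for C1qa (adjusted p up to 0.212) and in 11 of 14 for C1qb (up to 0.173). All of these fits kept the negative sign, with -2.30 to -1.38 for C1qa and -1.89 to -1.04 for C1qb. In the fit of the 20-day libraries alone, neither passed (adjusted p = 0.101 and 0.0925).

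Cd5l fell by the largest ratio of the 10 genes at 20 days. It was at 2.82, 1.08, 0.744 and 0.437 CPM with PBS and at 0.251, 0, 0.217 and 0 CPM with IL-1β, which amounts to 123 counts against 12 over the groups. The groups did not overlap, and IL-1β replicates 2 and 4 had no count. The fall was 3.26 ± 0.83 on the log2 scale, 9.56-fold (edgeR adjusted p = 0.0281). It lost the call without any one of PBS replicates 1 and 3 and IL-1β replicates 1 and 4 of the 20-day groups (adjusted p up to 0.0865) and in the fit of the 20-day libraries alone (0.0662). After 1 day Cd5l was at 1.47, 2.68 and 3.03 CPM with PBS and at 1.41, 0.742 and 3.03 with IL-1β. Those groups overlapped (-0.62 ± 0.78, edgeR adjusted p = 0.745). The Cd5l effect at 20 days minus that at 1 day was -2.63 ± 1.13 and did not pass the test (edgeR adjusted p = 0.227). The gene lies on chromosome 3, 87357881 to 87371073, plus strand.

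Vcam1 encodes an adhesion molecule of marrow macrophages that stromal and endothelial cells also carry (chromosome 3, 116109949 to 116129688, minus strand). Its lower mean level with IL-1β did not pass the edgeR test at either duration. After 1 day it went from 3.78, 6.31 and 6.35 CPM to 3.58, 1.53 and 2.26, groups that did not overlap (-1.15 ± 0.69, edgeR adjusted p = 0.406). After 20 days it went from 10.6, 3.44, 1.89 and 1.05 CPM to 0.431, 0.791, 1.82 and 1.37 (-1.68 ± 0.69, edgeR adjusted p = 0.179), a difference that DESeq2 called (adjusted p = 0.0378). Between naming sets the difference at 20 days was uneven: -3.20 in E061316 and 0.15 in the untagged set.

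Adgre1, which encodes an adhesion receptor widely used as a macrophage surface marker (chromosome 17, 57358691 to 57483527, plus strand), had the lowest level per length in the PBS libraries. It was at 2.86, 0.367 and 0.721 CPM with PBS for 1 day and at 0, 0.0412 and 0.657 CPM with IL-1β. PBS replicate 1 held 72 of the 97 counts of its group. The difference of -3.43 ± 1.49 did not pass the test (edgeR adjusted p = 0.228), although DESeq2 called it (adjusted p = 0.0203). At 20 days the levels were 1.32, 0.400, 0.913 and 0.0874 CPM with PBS and 0.467, 1.26, 0.130 and 0.0783 with IL-1β, with wide overlap (-0.95 ± 1.05, edgeR adjusted p = 0.691).

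Of the heme and iron genes, Hmox1 fell at 20 days and Slc40a1 showed no difference beyond its spread. Hmox1 (chromosome 8, 75093621 to 75100589, plus strand) was at 10.7, 3.68, 9.74 and 6.73 CPM with PBS for 20 days and at 4.09, 4.85, 1.34 and 2.27 CPM with IL-1β. PBS replicate 2 lay inside the IL-1β range. The fall was 1.40 ± 0.38 on the log2 scale, 2.65-fold (edgeR adjusted p = 0.0380), with a difference of -0.49 in E061316 and -2.16 in the untagged set. Leaving out 1 library ended that call in 7 of 14 fits (adjusted p up to 0.138). After 1 day Hmox1 went from 8.71, 8.41 and 11.2 CPM to 3.17, 6.35 and 5.00, groups that did not overlap (-0.95 ± 0.42, edgeR adjusted p = 0.235).

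Slc40a1 (chromosome 1, 45908068 to 45926523, minus strand) was at 8.91, 8.96 and 6.25 CPM with PBS and at 9.04, 8.41 and 8.47 with IL-1β after 1 day. At 20 days it was at 11.1, 6.59, 4.23 and 4.85 CPM with PBS and at 4.45, 8.56, 5.99 and 4.11 with IL-1β. Both pairs of groups overlapped, and the differences were 0.12 ± 0.28 and -0.15 ± 0.25 (edgeR adjusted p = 0.879 and 0.811). The exporter gene thus had no called difference at the duration at which the gene of heme breakdown fell. Whether the Hmox1 and Slc40a1 effects differ from each other was not tested.

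Cd68 went the other way from the C1q genes (chromosome 11, 69664213 to 69666153, minus strand). After 20 days it was at 15.0, 11.1, 12.4 and 14.9 CPM with PBS and at 31.0, 30.2, 20.1 and 24.5 CPM with IL-1β. Every IL-1β library lay above every PBS library. The rise was 0.97 ± 0.15 on the log2 scale, 1.96-fold (edgeR adjusted p = 0.00137), and no fit without 1 library ended the call (0.84 to 1.07, adjusted p up to 0.00832). Without the whole E061316 set it was 0.71 and just missed the threshold (edgeR adjusted p = 0.0522). The library with the high neutrophil and monocyte sums, replicate 3, had the lowest Cd68 level of the 4 IL-1β libraries, and without it the rise was 1.07. The monocyte sum was also higher in every IL-1β library than in every PBS library, and of 7 monocyte genes tested 1 rose at 20 days (Ms4a6c, a monocyte membrane protein gene, by 1.46 ± 0.14, edgeR adjusted p = 3.2e-05). Outside IL-1β 20-day replicate 3 the monocyte sum was mostly Ms4a6c and Fn1. Mean Ms4a6c was 9.73 CPM with PBS and 13.3 with IL-1β at 1 day, and 9.18 and 25.4 at 20 days. Mean Fn1 was 4.80 and 12.2 CPM at 1 day, and 4.40 and 5.60 at 20 days. Ly6c2 was at 0 in 8 of 14 libraries and Ccr2 in 6. The part of monocyte RNA in the Cd68 rise was not tested. After 1 day Cd68 was at 12.8, 12.2 and 12.5 CPM with PBS and at 20.0, 16.4 and 20.8 with IL-1β. These groups did not overlap either, but the difference of 0.61 ± 0.18 had an edgeR adjusted p of 0.0663. It was called with DESeq2 (0.0182) and in the fit of the 1-day libraries alone (0.0402).

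Spic was the member with a response that turned with the duration (chromosome 10, 88674772 to 88685015, minus strand). After 1 day it was at 7.80, 7.01 and 6.68 CPM with PBS and at 3.29, 3.30 and 3.18 CPM with IL-1β. The 3 IL-1β libraries lay close together and below the lowest PBS library. The fall was 1.13 ± 0.19 on the log2 scale, 2.20-fold (edgeR adjusted p = 0.00365). After 20 days Spic was at 5.91, 5.52, 8.22 and 7.03 CPM with PBS and at 9.22, 12.2, 11.1 and 11.9 CPM with IL-1β. Here every IL-1β library lay above every PBS library, with a rise of 0.74 ± 0.16, 1.68-fold (edgeR adjusted p = 0.0124). The effect at 20 days exceeded that at 1 day by 1.88 ± 0.25 (edgeR adjusted p = 0.00553). The 3 calls held in all 14 fits without 1 library, with adjusted p up to 0.0289 at 1 day, 0.0418 at 20 days and 0.0357 for the difference. With only 1 of the 20-day naming sets, the rise was 0.90 (E061316, edgeR adjusted p = 0.0718) or 0.59 (untagged, 0.149), and neither passed. Both naming sets of a duration had the same sign, -1.05 and -1.15 at 1 day and 0.88 and 0.59 at 20 days.

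**Figure D2:**
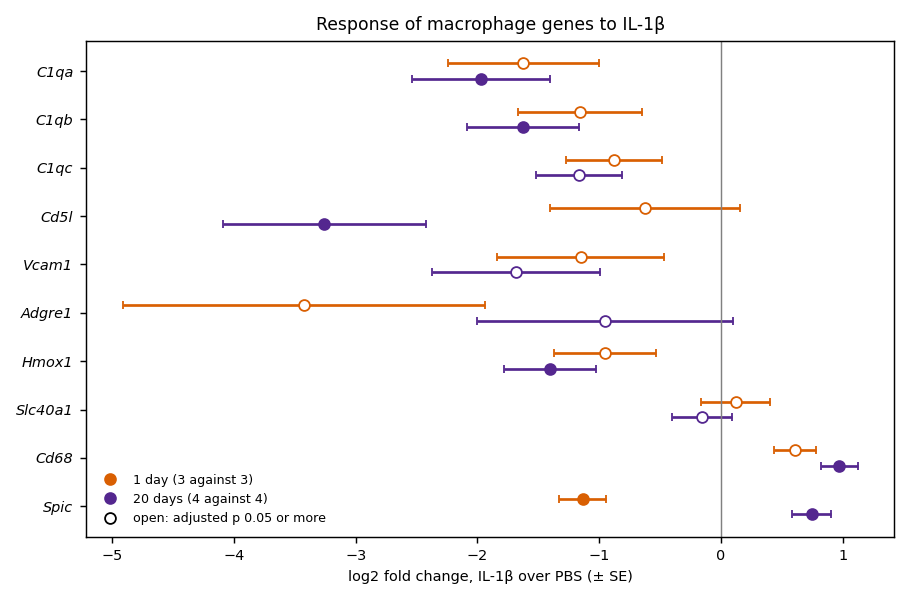
Log2 fold change of IL-1β over PBS with its approximate SE (horizontal axis) for each gene at 1 day and at 20 days, with filled points for an edgeR adjusted p under 0.05. At 1 day the call is Spic, at -1.13, and at 20 days Spic and Cd68 lie to the right of 0 while C1qa, C1qb, Cd5l and Hmox1 lie to the left.

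In all, 1 of 10 members was called at 1 day, where 4.35% of the 15466 genes tested were called, and 6 at 20 days, where 7.46% were. At 1 day that member was called lower, as were 1.83% of all genes, and none was called higher by edgeR (2.52% of all genes; 1 at an unadjusted p under 0.05 and 1 with DESeq2, Cd68). At 20 days 4 of 10 were called lower, against 3.52% of all genes, and 2 higher, against 3.94%. Groups of 1 day did not overlap for 4 members that were lower (8.91% of all genes) and 1 that was higher (8.75%). At 20 days they did not overlap for 2 lower (4.99%) and 2 higher (5.39%). The median log2 fold change of the 10 genes was -1.04 at 1 day and -1.28 at 20 days, beside medians of -0.01 and 0.00 over all genes tested. The 4 lower calls of 20 days were the least settled: the number ran from 0 to 5 when each library was left out, and was 0 without PBS 20-day replicate 1, IL-1β 20-day replicate 1 or IL-1β 20-day replicate 4. It was 1 without PBS 1-day replicate 2, PBS 20-day replicate 3 or 4 or IL-1β 20-day replicate 3. It was 2 without PBS 1-day replicate 1, IL-1β 1-day replicate 1 or 2 or IL-1β 20-day replicate 2. In bulk libraries, fewer cells of a type and less RNA per cell cannot be told apart.

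For the difference between the durations, 1 member was called (Spic), against 2.14% of all genes (1.15% with a higher and 0.989% with a lower effect at 20 days). Between PBS at 20 days and PBS at 1 day no member was called by edgeR, with none at an unadjusted p under 0.05 and none with DESeq2, and no gene of all those tested was called by edgeR (0%; 675 at an unadjusted p under 0.05 and 10 called with DESeq2). The mean level was nevertheless lower at 20 days than at 1 day for 9 of the 10 members in that fit, with a median of -0.52 that was -1.25 without PBS 20-day replicate 1. The 20-day PBS group was also the more uneven one.

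The summed C1q level shows how uneven it was. It was 11.5, 12.8 and 17.6 CPM in the PBS libraries of 1 day and 4.94, 4.04 and 11.1 in the IL-1β libraries. At 20 days it was 16.2, 5.04, 4.90 and 5.99 CPM with PBS and 2.12, 3.63, 1.78 and 3.09 with IL-1β. PBS 20-day replicate 1 thus lay at the level of the 1-day PBS libraries, while the other PBS libraries of 20 days lay near 2 of the 3 IL-1β libraries of 1 day. The same library was the highest of its group for 9 of the 10 members, all but Spic. The IL-1β 1-day library of the 10k set was the highest of its group for 6 members, namely Adgre1, the 3 C1q chains, Cd5l and Cd68.

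Across the 14 libraries, the members ranged from genes that followed C1q to genes that went against it. Pearson's r of each gene's log2(CPM + 0.5) with the log2 summed C1q level was 0.88 for Cd5l (Spearman's rho 0.87), 0.80 for Vcam1 (0.82) and 0.78 for Hmox1 (0.77). It was 0.54 for Slc40a1 (0.54), 0.49 for Adgre1 (0.40), -0.38 for Spic (-0.54) and -0.61 for Cd68 (-0.63). These values describe the 14 libraries, which share amplification, naming set and treatment, so no p is given. Without the 2 libraries farthest from the median C1q level, PBS 1-day replicate 3 and PBS 20-day replicate 1, r was 0.83 for Cd5l, 0.69 for Vcam1 and 0.68 for Hmox1. Within the 7 PBS libraries r was 0.90 for Cd5l, 0.83 for Vcam1, 0.66 for Hmox1, 0.72 for Slc40a1 and 0.39 for Adgre1. Within the 7 IL-1β libraries it was 0.82, 0.51, 0.55, 0.62 and 0.21. Slc40a1, which was below Hmox1 over all libraries, was thus not below it within either treatment. The Hmox1 value within IL-1β was 0.10 without 2 libraries, IL-1β 1-day replicate 3 and IL-1β 20-day replicate 3. Cd68 had 0.26 within PBS and -0.32 within IL-1β. Its PBS value was -0.40 without 2 libraries, PBS 20-day replicates 2 and 3, so its sign within PBS is not settled. Spic had -0.13 within PBS and -0.73 within IL-1β.

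**Figure D3:**
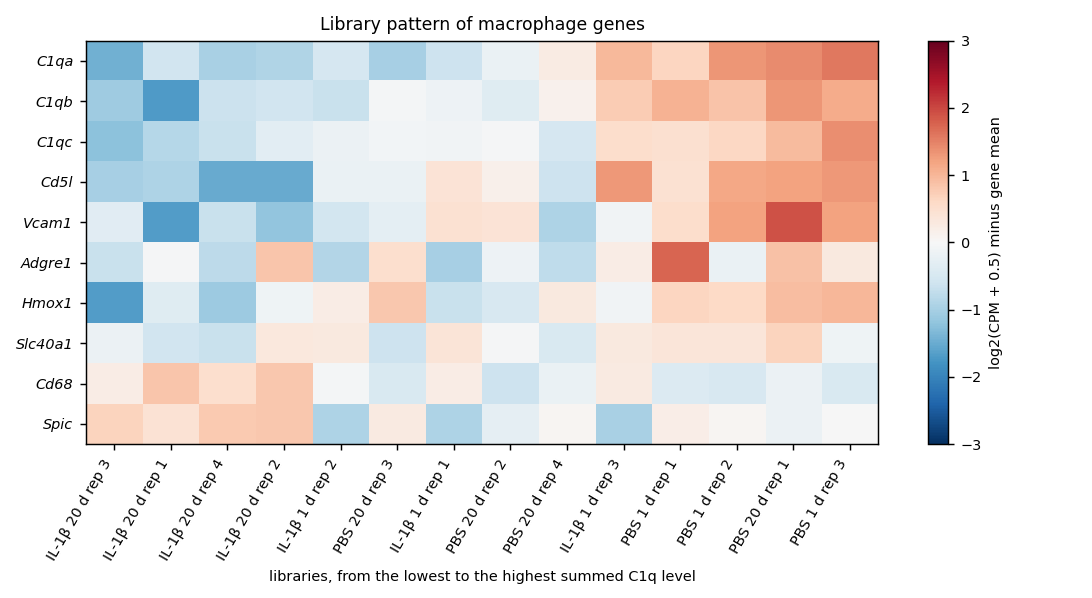
Deviation of log2(CPM + 0.5) from each gene's mean (colour) for the 10 genes (rows) in the 14 libraries (columns), ordered by summed C1q level. The C1q chains set the column order, so their grading along it is built in. Cd5l and Vcam1 grade with them, from the IL-1β 20-day libraries on the left to PBS libraries on the right. Spic and Cd68 do not follow that order.

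After the naming set and treatment means were taken out, the residuals of the 3 C1q chains were related to each other at r = 0.62 (C1qa and C1qb), 0.39 (C1qa and C1qc) and 0.76 (C1qb and C1qc). Residual r with the C1q sum was 0.48 for Cd5l, 0.55 for Vcam1, 0.68 for Slc40a1, 0.33 for Hmox1 and 0.31 for Adgre1. It was positive for Spic (0.26) and Cd68 (0.46) too, although their r over all libraries was negative. Over the 6 pairs of C1qa, C1qb, C1qc and Cd5l the median r before this step was 0.87, and it was 0.29 over the other 39 pairs of members. After it the medians were 0.49 and 0.34. The 4 genes were grouped after their values were seen.

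The C1qb share of the C1q counts varied more where counts were low. It was 37.2% to 53.8% in PBS 1-day libraries, which held 290 to 366 C1q counts. In the IL-1β 20-day libraries, with 41 to 101 C1q counts, it was 23.7% to 58.5%. The other members did not keep a fixed ratio to C1q. For every 100 C1q counts there were 70.8 to 111 Cd68 counts in PBS 1-day libraries and 792 to 1464 in IL-1β 20-day libraries, and 38.0 to 67.6 against 335 to 622 Spic counts. Hmox1 moved less, from 63.9 to 75.5 against 73.4 to 193, and Vcam1 from 32.8 to 49.3 against 20.3 to 102. Cd5l counts per 100 C1q counts were 12.8 to 20.9 in the first group and 0 to 12.2 in the last. Slc40a1 counts were 35.5 to 77.2 in the first and 133 to 337 in the last. For Cd68, Spic and Slc40a1, every IL-1β 20-day library thus lay above every PBS 1-day library in this ratio. These groups differ in duration and naming set as well as treatment. In the PBS 20-day libraries the ratio was 92.7 to 254 for Cd68, 36.4 to 168 for Spic and 68.5 to 131 for Slc40a1, the last just below its IL-1β 20-day range.

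Among all 15466 genes tested, likeness to the summed C1q level, measured as the same r over 14 libraries, put Cd5l at rank 5, Vcam1 at 25 and Hmox1 at 43, after the 3 chains that make up the sum. Slc40a1 was at rank 885 and Adgre1 at 1213. Outside the members, Fcna was the most alike (r = 0.88, residual r 0.67). It encodes ficolin A, a lectin of the complement system known from macrophages. Fcna was at 2.78, 1.80 and 2.69 CPM with PBS for 1 day, 0.402, 1.03 and 1.46 with IL-1β for 1 day, 5.38, 1.20, 0.473 and 1.97 with PBS for 20 days and 0, 0.0719, 0.260 and 0.157 with IL-1β for 20 days. It had its highest level in PBS 20-day replicate 1, the library that was also the highest of its group for 9 members. Fcna was picked for its likeness to C1q over these same libraries, so that likeness is no separate finding. The next 9 were Mettl2, Ubtf, Plxna1, Fscn1, Znhit6, Fasn, Rcor2, Jag2 and St6galnac6, with r from 0.87 to 0.84 and mean levels of 14.7 (Fscn1) to 228 CPM (Ubtf). Since the ranking used all libraries, treatment included, differences between groups are not given as results for Fcna or for these 9 genes.

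**Figure D4:**
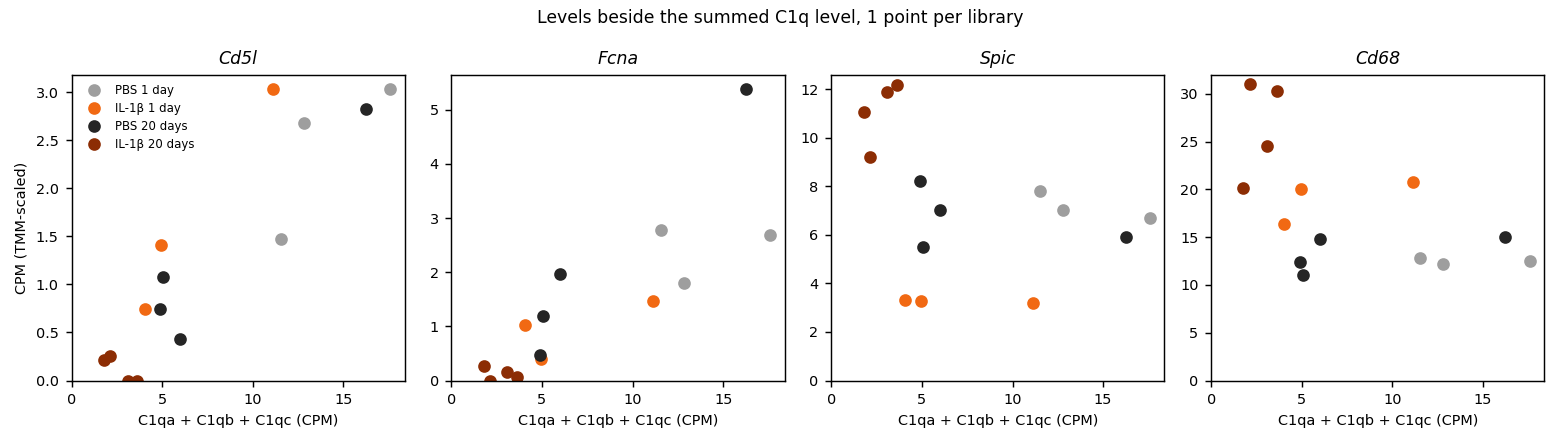
CPM of Cd5l, Fcna, Spic and Cd68 (vertical axes) against the summed CPM of C1qa, C1qb and C1qc (horizontal axes), with 1 point per library in the colour of its group. Cd5l climbs with C1q, as does Fcna, which was picked for that likeness. Spic and Cd68 are set apart by group, with Spic near 3 CPM in all IL-1β 1-day libraries whether C1q is at 4.04 or 11.1 CPM.

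Other genes of macrophages behaved unevenly. Of 26 listed, all were in the table and 22 were tested. Defining markers of tissue macrophages were at 0 in many libraries: Siglec1 in 11 of 14, Msr1 in 9, Marco in 8 and Timd4 in 5. The haptoglobin-hemoglobin receptor gene Cd163, by contrast, was at 11.6 to 19.2 CPM, and Apoe (470 to 1089 CPM) and Lyz2 (333 to 616 CPM) were high in every library. After 1 day 2 of the 22 fell and none rose by edgeR (2 rose at an unadjusted p under 0.05 and 2 with DESeq2): Apoe, which encodes a lipid carrier, by 0.67 ± 0.10 and Fcer1g, an Fc receptor chain gene, by 1.02 ± 0.19. After 20 days 3 rose and none fell by edgeR (1 fell at an unadjusted p under 0.05 and 1 with DESeq2): the lysosomal protease genes Lgmn, by 2.63 ± 0.51, and Ctss, by 1.07 ± 0.22, and the integrin gene Itgam, by 1.73 ± 0.32. Apoe joined Spic in a difference between durations (0.92 ± 0.13, edgeR adjusted p = 0.00553). The list's median was -0.28 at 1 day and 0.16 at 20 days, and its sum ran from 1679 to 2106 CPM in PBS and 1276 to 1492 CPM in IL-1β libraries at 1 day, and from 1663 to 1881 and 1938 to 2186 CPM at 20 days. Its sum is mostly Apoe and Lyz2, and its part in the results of the 10 members was not tested.

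Of 20 tested genes of heme and iron handling, none was called at 1 day by edgeR (5 at an unadjusted p under 0.05 and 3 with DESeq2). After 20 days 1 rose and 2 fell: Ncoa4, which encodes the receptor for ferritin breakdown, rose by 0.35 ± 0.08, while Ftl1, the ferritin light chain gene, and Pcbp1, an iron chaperone gene, fell by 0.29 ± 0.08 and 0.41 ± 0.08. Bach1, which encodes a heme-sensing repressor of Hmox1 and Spic, had -0.54 ± 0.15 at 1 day (edgeR adjusted p = 0.0528) and differed between durations by 0.83 ± 0.20 (edgeR adjusted p = 0.0454). Of 12 target genes of NRF2, a factor that activates Hmox1, Gclm rose and Osgin1 fell at 1 day (0.32 ± 0.09 and -0.96 ± 0.19). None of the 12 was called by edgeR at 20 days, the duration at which Hmox1 fell. At an unadjusted p under 0.05, 3 were lower and 0 higher, as with DESeq2, and 9 of the 12 had a negative difference. Whether these genes moved with Hmox1 was not tested.

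Markers of other marrow cells moved beside these genes. The 12 erythroid genes summed to 91.9 to 156 CPM in PBS libraries and to 225 to 290 CPM in the IL-1β 20-day libraries, the group with the lowest C1q levels. Of 8 tested, 3 rose and 1 fell there, with Hbb-bt, a beta globin gene, higher by 3.11 ± 0.24. The 12 stromal and endothelial genes, a further possible source of Vcam1, summed to 62.8 to 96.4 CPM in PBS libraries, 60.5 to 82.0 in IL-1β 1-day and 76.5 to 95.7 in IL-1β 20-day libraries. Lepr was at 0 in 8 of 14 libraries and Cdh5 in 5, while Emcn (22.6 to 34.3 CPM), Col1a2 (12.4 to 32.6), Pdgfrb (5.34 to 29.3) and Kdr (5.81 to 18.8) were present in every library. Of 8 tested, 1 was called lower at 1 day (Col1a2, -0.79 ± 0.15) and 1 higher at 20 days (Pdgfrb, 0.86 ± 0.23). Col1a2 also differed between durations (1.02 ± 0.20, edgeR adjusted p = 0.0276). The 9 dendritic cell genes, a possible further source of C1q, summed to 11.3 to 21.2 CPM with PBS, 7.54 to 12.3 with IL-1β for 1 day and 11.4 to 20.0 for 20 days. The 9 B and plasma cell genes in the table summed to 56.3 to 78.6 CPM over all libraries. The 3 T and NK cell genes in the table, mostly Nkg7, a cytotoxic granule gene, summed to 34.0 to 63.6 CPM with PBS, 52.5 to 73.4 with IL-1β for 1 day and 77.5 to 92.3 for 20 days. Nkg7 rose at 20 days by 1.07 ± 0.14 (edgeR adjusted p = 0.000292), while the T cell gene Cd3g was at 0 in 13 of 14 libraries. The part of these cell types in the results was not tested. Of 12 tested genes of stem cells and the sort, edgeR called 2 lower at 1 day, and 3 higher and 1 lower at 20 days. Those higher at 20 days included Flt3 (1.02 ± 0.15, edgeR adjusted p = 0.000768) and Cd48 (1.10 ± 0.26, edgeR adjusted p = 0.0197).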

How the data were processed

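RNA of sorted SLAM cells was amplified with SMARTer chemistry, made into Nextera XT libraries and read from a single end, per the labels' protocols. Per the submitters' processing notes, the build was GRCm38.p4 and the tools included STAR 2.4.2a with Trimmomatic 0.32, Cuffdiff and Cufflinks 2.0.2, DESeq2 1.12.3 and HTSeq 0.6.1, with no role stated. Which annotation and strand setting were used is not given in the sources used here. Values are raw counts per gene symbol, as the authors deposited them. Reads without molecular identifiers are not independent molecules, so counting floors cover counting error only. Without strand, Vcam1 reads cannot be told apart from those of an antisense gene that overlaps it.

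Counts were tested with edgeR 4.0.16 (R 4.3.3): TMM factors, filterByExpr (minimum count 10), a robust quasi-likelihood fit with a two-sided F-test, and p-values adjusted by Benjamini-Hochberg over all genes tested (threshold 0.05). All 14 libraries entered 1 fit with naming set and an IL-1β effect per duration (8 residual degrees of freedom). PBS at 20 days and at 1 day were compared with group means as the model. The SE is the absolute log2 fold change over the root of F and is approximate. Naming-set differences use log2 CPM with a prior count of 2. CPM are TMM-scaled, list sums use library totals, and positions and exon lengths come from GENCODE M21 (GRCm38). The procedure was tested on simulated data. DESeq2 1.42.0 was an alternative, with other factors, filters, covariates and leave-out fits. No 2 replicates were alike within sampling noise (chi-square per degree of freedom 10.7 to 74.4 over 18 pairs).

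Members and lists were chosen with earlier results of these data known. Named genes are the members, up to 3 called genes with the smallest p per list and comparison (2 where none is called), the 10 genes most like the summed C1q level, and defining markers shown beside a result. Not every gene the rule takes is named. Permutation p-values planned for the correlations are not printed.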

Additional observations from a re-analysis of the deposited data

Results flagged for a closer look

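The response of Spic to IL-1β differed between the durations: the log2 effect at 20 days exceeded that at 1 day by 1.88 ± 0.25 in the test of the difference itself (edgeR adjusted p = 0.00553). All 3 IL-1β libraries of 1 day lay below all PBS libraries, and all 4 of 20 days lay above. No library of the 20-day groups stood apart from its group by Dixon's criterion in any of the 20 combinations of gene and group examined, a criterion that chance passes in about 1 of 20 groups. The check took 1 member at a time, with 4 libraries per group, and was not applied to the summed C1q level. It therefore does not clear PBS 20-day replicate 1, the highest of its group for 9 of the 10 members.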

How the results depend on the processing

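Of 820 alternative values of the members' log2 fold changes, 743 kept direction and side of the threshold, 51 lost a call, 9 gained one and 17 changed sign. Members called lower at 20 days numbered 4, but 1 without the naming set term, 2 with the replicate block in its place, 0 in the fit of the 20-day libraries alone, and 1 without either 20-day naming set, a choice made after the data were seen (0 to 5 over the leave-out fits). Members called higher at 20 days numbered 2, but 1 without the untagged set and 0 without E061316 (2 in every leave-out fit). At 1 day, DESeq2 called 2 lower and 1 higher, and the 1-day libraries alone gave 1 higher (leave-out 1 lower in each, 0 to 1 higher; Cd68 was called without PBS 20-day replicate 2 or 4). The cause was not tested.

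Signs changed only for differences that were not called. At 20 days these were Adgre1 (0.00497 without the untagged set, -1.59 to 0.0642 over leave-out fits), Vcam1 (0.11 without E061316) and Slc40a1 (0.15 without E061316, -0.34 to 0.0678), and at 1 day Slc40a1 (-0.0318 to 0.20). Between PBS groups it was Adgre1 (-1.48 to 0.33), and for the difference between durations C1qa (-0.73 to 0.25), C1qb (-0.76 to 0.12), C1qc (-0.56 to 0.0382) and Vcam1 (-1.20 to 0.15). Of 112 alternative values of the correlations with C1q over 14 libraries, 35 moved by more than 1 SD of the leave-out values and none changed sign. Within the PBS libraries, which are not among these, the sign for Cd68 was the opposite (0.26), but not without PBS 20-day replicates 2 and 3 (-0.40).

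Replicate numbers were checked as a possible pairing: deviations of same-numbered libraries correlated at 0.03 to 0.34 over 7 pairs, 4 of them over 0.1 and 5 best with their own number. The deviations are from group means and also hold naming-set differences, so these values cannot decide whether the numbers pair the libraries. The main fit did not pair them. With the replicate block, 383 genes were called at 1 day and 672 at 20 days, against 672 and 1154, and C1qb and Hmox1 were not called (edgeR adjusted p = 0.130 and 0.102). Without the naming set term the numbers were 290 and 525, with DESeq2 1398 and 1809, and with the libraries of 1 duration alone 1200 and 750. For the difference between durations 331 genes were called, 23 without the set term, 23 with the block and 1182 with DESeq2. Upper-quartile factors gave 344 higher and 399 lower at 1 day, against 389 and 283. Low counts limit Adgre1 and Cd5l most, with single libraries at 0.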
